A study of Homo sapiens with 8 samples.

Results

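The genes described here encode orphan and adhesion G protein-coupled receptors, together with the receptors of 2 bioactive lipids, in spheroids of a cisplatin-resistant ovarian carcinoma line and of its parent. They were chosen by symbol alone, as the probesets named by 1 gene whose symbol is GPR with a number, ADGR with a letter from A to G and a number, GPRC5A to GPRC5D, LPAR1 to LPAR6 or S1PR1 to S1PR5. This gave 97 genes out of the 18417 that such probesets name, each with 1 probeset. Of 110 genes of these names in the RefSeq table, 13 were not analysed here. Among them are LPAR5, which no probeset names here, and GPR37 and S1PR3, whose probesets also carry other genes. OVCAR-8R spheroids (4 arrays) come from OVCAR-8 cells that were exposed to cisplatin in rising steps up to 5 μM and that stayed resistant after the drug was withdrawn, and the sample labels call this line OVCAR-8C. OVCAR-8 spheroids (4 arrays) come from the parental ovarian adenocarcinoma line without that exposure. Both lines were grown in the same medium as spheroids of about 300 μm, and the resistant line is 1 derivative of 1 parent, so what follows compares these 2 lines. The arrays were Affymetrix Human Gene ST arrays, and the titles number the 4 of each line as biological replicates.

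G protein-coupled receptors cross the membrane several times and, when a ligand binds outside, activate a G protein inside the cell. Adhesion receptors carry a long extracellular part that binds matrix or cell surface proteins and is often cleaved off the membrane part by the receptor itself. LPA (lysophosphatidic acid) and S1P (sphingosine 1-phosphate) are signalling lipids with receptors of their own, and LPA is known for its abundance in the ascites of ovarian cancer. Receptors numbered GPR were named before a ligand was known, and many still lack one.

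Signals are log2 values of the RMA signal, a background-corrected and quantile-normalized intensity. Levels of different genes cannot be compared on such an array, so each gene is compared only between the lines. Differences subtract the OVCAR-8 mean from the OVCAR-8R mean on the log2 scale, and limma's standard error follows in parentheses. To be called, a gene had to differ 2-fold or more and reach an adjusted p (Benjamini-Hochberg, over the 25628 probesets kept) below 0.05. Probesets that both lines placed in their lowest quartile by mean signal (log2 means up to 5.11 in OVCAR-8R and 5.16 in OVCAR-8) were left out. Median signals per array lay between 6.68 and 6.73 in OVCAR-8R and between 6.67 and 6.73 in OVCAR-8. OVCAR-8R arrays 1 and 3 deviated from their mean together across probesets (r = 0.43), as did arrays 2 and 4 (r = 0.48). The other pairs of OVCAR-8R arrays had r between -0.76 and -0.68, so the arrays fell into 2 opposed pairs. The standard errors treat the 4 arrays of a line as independent. Among the receptors called, the mean of arrays 1 and 3 and the mean of arrays 2 and 4 lay at most 0.37 apart.

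Markers of the labelled tissue and of other cell types were compared between the lines. Of 17 ovarian carcinoma and epithelial markers above the filter, 8 were higher in OVCAR-8R, 1 was lower and 8 were not called. The lower 1 was MECOM, at -2.45 on its brightest probeset, while its other probeset gave -0.41 and was not called. CDH6 was low in both lines. With it, the summed linear signal of the 17 was 13622 to 14556 on the OVCAR-8R arrays and 2701 to 3023 on the OVCAR-8 arrays. Such a sum mostly follows the brightest probesets, among them KRT8, which averaged 12.50 in OVCAR-8R and 9.54 in OVCAR-8. The Mullerian lineage factor gene PAX8 averaged 10.28 in OVCAR-8R and 6.51 in OVCAR-8. MUC16, which encodes the tumour marker CA125, averaged 5.74 in OVCAR-8R and 5.67 in OVCAR-8 and was not called. The leukocyte markers PTPRC, CD3D, CD3E, MS4A1 and LYZ lay in the lowest quartile in both lines, CD14 and ITGAM were not called, and CD68, a lysosomal protein gene, was the 1 of the 8 on the array that was called, at 11.196 in OVCAR-8R and 8.68 in OVCAR-8. The summed leukocyte markers were 2468 to 2650 in OVCAR-8R and 596 to 687 in OVCAR-8, and without CD68 the other 7 summed to 212 to 254 in OVCAR-8R and 217 to 227 in OVCAR-8. The 5 endothelial markers were not called (209 to 232 in OVCAR-8R, 190 to 203 in OVCAR-8), and of 7 fibroblast markers COL1A1 was higher and LUM lower (950 to 1052 in OVCAR-8R, 412 to 475 in OVCAR-8). The part of these marker differences in the receptor differences was not tested.

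Of the 97 receptor genes, 75 passed the filter, of which OVCAR-8R spheroids had 8 at a higher and 5 at a lower level. The 8 higher genes were GPRC5A, ADGRG1, GPR176, GPR143, S1PR1, GPR39, ADGRG6 and ADGRE5. The 5 lower genes were GPR50, GPR155, GPR63, LPAR1 and ADGRB3. Called receptors made up 17.3% of the 75, near the 16.7% called among all 15931 genes measured (14.3% of all probesets). By direction, 10.7% of the receptors were higher and 6.67% lower, where 8.37% of all genes were higher and the same share was lower. With no minimum size, an adjusted p below 0.05 was reached by 23 receptors that were higher and 12 that were lower. These are 30.7% and 16% of the 75, beside 27.6% and 30.0% of all genes. The median difference was 0.07 over these receptors and -0.01 over all genes. Differences under 0.25 in size were found for 53.3% of the receptors and 42.1% of all genes. The arrays of the lines did not overlap for 32 receptors (42.7%), where 56.8% of all genes showed no overlap. All 13 called receptors were among the 32, and the narrowest gap between the lines was 0.84, at S1PR1.

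**Figure D1:**
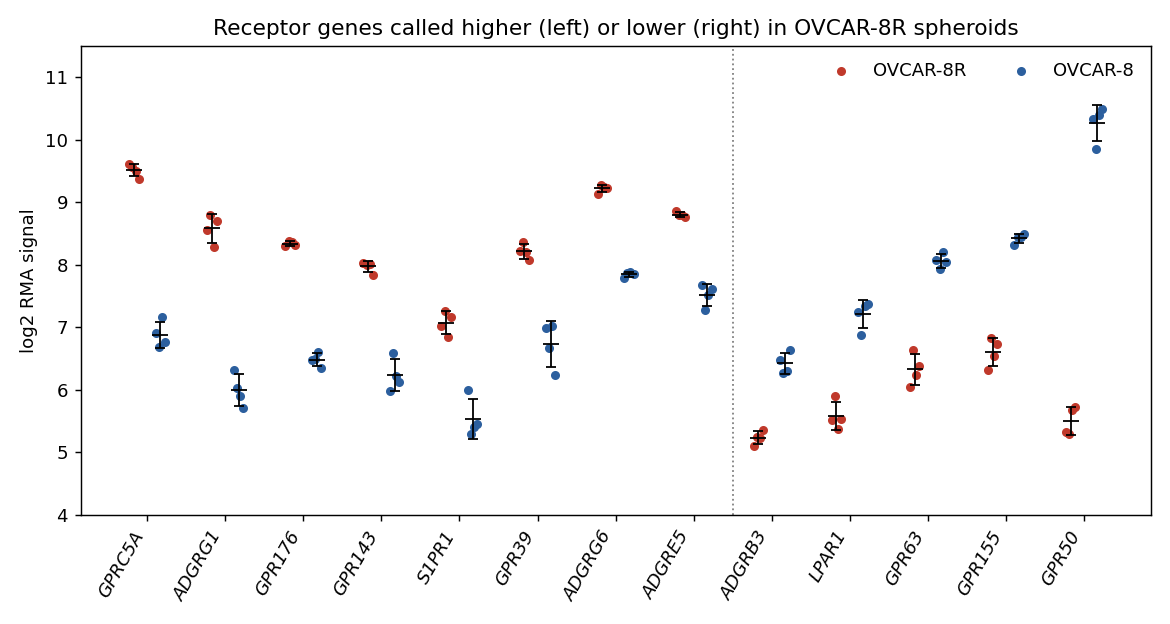
Log2 RMA signal (vertical axis) of the 13 called receptor genes by array, with 4 red points for OVCAR-8R to the left of 4 blue points for OVCAR-8, and black marks for each line's mean and SD. No gene has overlapping lines, and GPR50 shows the widest gap, at 5.51 in OVCAR-8R and 10.27 in OVCAR-8.

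RefSeq promoters (250 bases before to 50 after a start site, GRCh38.p14) were found for 10 of the 13 called genes, and are shown where they hold a searched motif, to let a reader see where it lies. In 8 of the 10 this site is the outer end of the RefSeq gene, whereas for GPR143 and S1PR1 it lies 12755 and 120 bases inside the gene. Motifs were searched on both strands as AP-1 (TGANTCA), TEAD (GGAATG), the cyclic AMP response element (TGACGTCA) and the E-box bound by ZEB and SNAI factors (CAGGTG). No matches overlapped. Among the higher genes, ADGRG1, GPR39 and ADGRG6 held the E-box, and GPR39 and GPR176 the TEAD motif. Capitals below mark these matches, and each sequence runs 5′ to 3′ on the gene's strand.
ADGRG1 (chr16:57619488-57619787, plus strand): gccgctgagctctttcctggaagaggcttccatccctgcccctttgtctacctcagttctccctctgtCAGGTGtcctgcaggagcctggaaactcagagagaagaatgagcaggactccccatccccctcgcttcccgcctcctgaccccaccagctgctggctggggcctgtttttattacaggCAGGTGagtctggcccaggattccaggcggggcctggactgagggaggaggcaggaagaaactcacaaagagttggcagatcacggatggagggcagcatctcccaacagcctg
GPR39 (chr2:132416555-132416854, plus strand): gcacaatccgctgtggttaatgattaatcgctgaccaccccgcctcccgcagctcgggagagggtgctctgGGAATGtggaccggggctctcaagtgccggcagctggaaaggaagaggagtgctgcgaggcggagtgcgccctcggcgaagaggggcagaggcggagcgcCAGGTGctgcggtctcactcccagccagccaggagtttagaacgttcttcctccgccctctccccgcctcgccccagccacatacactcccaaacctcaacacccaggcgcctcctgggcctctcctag
ADGRG6 (chr6:142301757-142302056, plus strand): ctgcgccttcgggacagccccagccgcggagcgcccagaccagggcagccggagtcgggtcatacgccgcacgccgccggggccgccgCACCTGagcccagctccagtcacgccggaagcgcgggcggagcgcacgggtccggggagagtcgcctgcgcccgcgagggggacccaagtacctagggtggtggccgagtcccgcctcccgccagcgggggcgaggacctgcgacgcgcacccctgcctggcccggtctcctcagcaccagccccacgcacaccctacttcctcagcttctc
GPR176 (chr15:39920217-39920516, minus strand): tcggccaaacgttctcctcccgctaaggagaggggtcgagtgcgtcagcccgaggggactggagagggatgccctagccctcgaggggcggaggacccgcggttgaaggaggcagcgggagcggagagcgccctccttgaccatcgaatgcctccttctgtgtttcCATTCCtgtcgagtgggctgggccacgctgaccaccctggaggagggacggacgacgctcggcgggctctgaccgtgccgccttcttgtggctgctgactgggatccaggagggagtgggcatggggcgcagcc

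The E-box was in 3 of 6 promoters of higher receptors and in 0 of 4 of lower receptors, where 20.6% of all 27305 promoters held it. The TEAD motif was in 2 of 6 promoters of higher receptors and 0 of 4 of lower receptors, beside 14.0% of all promoters. Among 59 promoters of receptors past the filter, 23.7% held the E-box and 16.9% the TEAD motif. Among 12455 promoters of measured genes, these shares were 19.6% and 11.3%. Without GPR143 and S1PR1, which held no match, the E-box was in 3 of 4 and the TEAD motif in 2 of 4 promoters of higher receptors. The shares over all promoters were not restricted to windows at the gene start, so they cannot be set beside these 2 counts. The AP-1 motif and the cyclic AMP response element, which 7.76% and 1.98% of all promoters held, were in none of the 10. In the ADGRG1 promoter the E-box starts at -182 and -64 bases from the gene's start, and in the GPR39 promoter the TEAD motif starts at -179 and the E-box at -79. The matches in ADGRG6 (-162) and GPR176 (-84) lie on the opposite strand and are printed as CACCTG and CATTCC. The sets are small, and a match of letters shows neither binding nor its absence.

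Of 21 adhesion receptor genes on the arrays, 16 passed the filter, 3 were higher in OVCAR-8R, 1 was lower and 12 were not called. ADGRG1 (GPR56), a receptor that binds type III collagen and transglutaminase 2 and is known from cortex development, had signals of 8.56, 8.80, 8.28 and 8.70 in OVCAR-8R, against 6.32, 6.03, 5.91 and 5.71 in OVCAR-8. Its lowest OVCAR-8R array was well above its highest OVCAR-8 array, and the gene rose by 2.59 on the log2 scale, a 6.02-fold difference (standard error 0.15, adjusted p = 3.88e-07 from limma). ADGRG3, the coding gene next to ADGRG1, had a difference of 0.01 (0.09) and was not called. ADGRG6 (GPR126), which Schwann cells need to myelinate axons, had signals of 9.14, 9.28, 9.24 and 9.24 in OVCAR-8R, against 7.79, 7.87, 7.88 and 7.85 in OVCAR-8. Within each line its arrays lay close together, and it rose by 1.38 (0.07, adjusted p = 1.12e-07). ADGRE5 (CD97), a receptor of leukocytes and carcinoma cells that binds CD55, had signals of 8.86, 8.79, 8.80 and 8.76 in OVCAR-8R, against 7.67, 7.27, 7.51 and 7.62 in OVCAR-8. It rose by 1.28 (0.09, adjusted p = 1.96e-06), a size that did not pass treat, the limma test for more than 2-fold (adjusted p = 0.0845). Its relative ADGRE2, whose EGF-like domains are nearly identical in sequence, so that signal may be shared, averaged 5.92 in OVCAR-8R and 5.86 in OVCAR-8 and was not called.

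ADGRB3 (BAI3), a synaptic receptor of C1q-like proteins, was the adhesion receptor called lower. It had signals of 5.11, 5.24, 5.23 and 5.36 in OVCAR-8R, against 6.48, 6.27, 6.31 and 6.64 in OVCAR-8, and fell by 1.19 on the log2 scale (0.10, adjusted p = 4.54e-06). Its OVCAR-8R mean of 5.23 lies just above the quartile bound, so the size is uncertain, and neither treat (adjusted p = 0.43) nor log2(signal + 16), where it fell by 0.92, kept the call. ADGRA3 (GPR125) came nearest to the threshold without being called, with signals of 6.64, 6.69, 6.58 and 6.51 in OVCAR-8R, against 7.57, 7.45, 7.68 and 7.64 in OVCAR-8. Its difference was -0.97 (0.08, adjusted p = 3.52e-06), and it was called without OVCAR-8R replicate 2 (-1.0010) or without OVCAR-8 replicate 2 (-1.0197). ADGRG2 (GPR64), known from the epididymis, had a difference of -0.69 (0.07, adjusted p = 1.85e-05). The remaining 10 measured adhesion receptors had differences between -0.22 (ADGRA1) and 0.21 (ADGRD2). Of these, ADGRB2 had arrays that did not overlap, at a difference of 0.17 (0.08, adjusted p = 0.115).

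**Figure D2:**
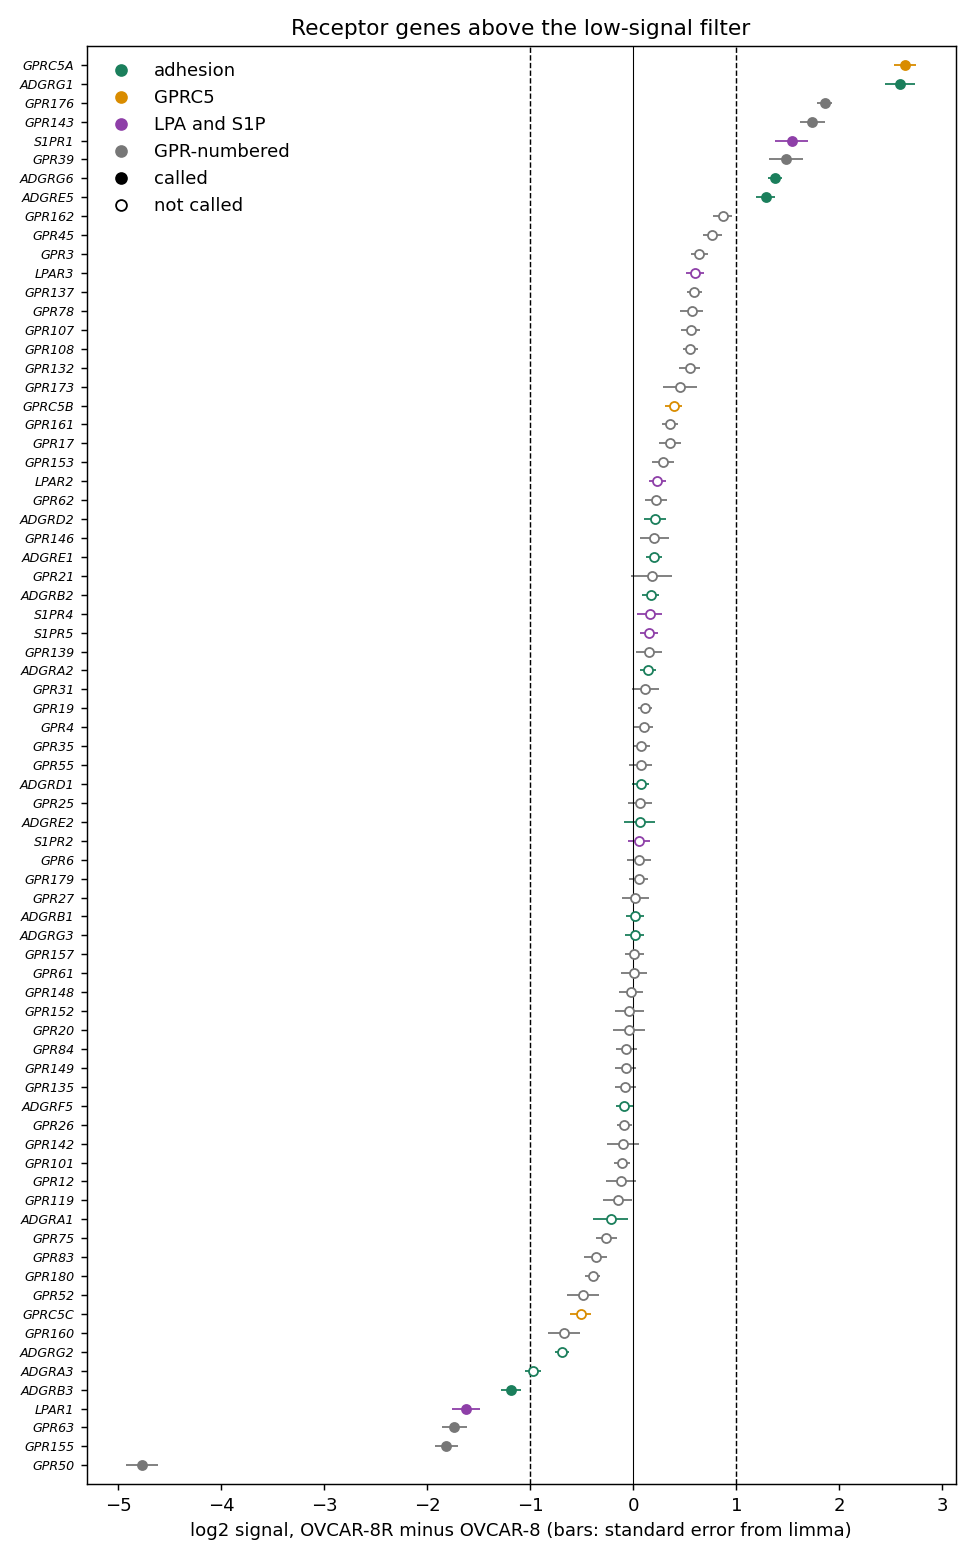
Difference in log2 signal between OVCAR-8R and OVCAR-8 (horizontal axis) of each of the 75 receptor genes above the low-signal filter (vertical axis, sorted), with standard errors from limma, filled points for called genes and dashed lines at 2-fold. Most receptors lie near 0, and GPR50, at -4.76, stands far from the next gene, GPR155, at -1.81.

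GPRC5A, an orphan receptor of class C that retinoic acid induces and that acts as a tumour suppressor in mouse lung, had the largest rise of the receptors tested. It had signals of 9.61, 9.56, 9.50 and 9.38 in OVCAR-8R, against 6.91, 6.68, 7.16 and 6.76 in OVCAR-8. Every OVCAR-8R array was far above every OVCAR-8 array, and GPRC5A rose by 2.63, a 6.21-fold difference (0.11, adjusted p = 4.44e-08). GPRC5B, known from neural tissue and fat, had signals of 8.41, 8.64, 8.44 and 8.66 in OVCAR-8R, against 8.20, 8.19, 8.12 and 8.08 in OVCAR-8. This was a small shift of 0.39 (0.08, adjusted p = 0.00247) without overlap. GPRC5C had signals of 6.46, 6.09, 6.31 and 6.06 in OVCAR-8R, against 6.87, 6.70, 6.64 and 6.77 in OVCAR-8, a difference of -0.51 (0.10, adjusted p = 0.00208) under the 2-fold threshold. GPRC5D, known from plasma cells and lying next to GPRC5A, was in the lowest quartile, averaging 4.96 in OVCAR-8R and 5.15 in OVCAR-8.

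Of the 5 receptors for LPA measured, which leave out LPAR5, LPAR1 was lower in OVCAR-8R spheroids. It had signals of 5.52, 5.90, 5.38 and 5.54 in OVCAR-8R, against 7.25, 6.88, 7.34 and 7.37 in OVCAR-8, with no overlap. LPAR1 fell by 1.63 on the log2 scale, a 3.08-fold difference (0.14, adjusted p = 5.76e-06). LPAR3 shifted the other way, with signals of 8.84, 8.87, 9.04 and 8.74 in OVCAR-8R, against 8.22, 8.40, 8.34 and 8.13 in OVCAR-8, and its difference of 0.60 (0.09, adjusted p = 0.000336) was under 2-fold. LPAR2 had a difference of 0.23 (0.08, adjusted p = 0.0348). LPAR4 and LPAR6 lay in the lowest quartile in both lines, at 4.58 and 4.71 in OVCAR-8R, against 4.74 and 4.79 in OVCAR-8.

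Of the 4 receptors for S1P measured, S1PR1, known from lymphocyte egress and endothelial cells, was called higher. It had signals of 7.02, 7.27, 6.84 and 7.16 in OVCAR-8R, against 5.998, 5.29, 5.41 and 5.45 in OVCAR-8. OVCAR-8 array 1 was the highest of its line and still below all OVCAR-8R arrays. S1PR1 rose by 1.54, a 2.90-fold difference (0.16, adjusted p = 2.03e-05). The endothelial markers PECAM1 and CDH5 had differences of 0.16 (0.09) and 0.14 (0.09) and were not called. S1PR2, S1PR4 and S1PR5 had differences of 0.06 (0.11), 0.16 (0.12) and 0.15 (0.08), with overlapping arrays.

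Genes that make, clear or export LPA and S1P were listed with their receptors, and of 13 above the filter 2 were higher in OVCAR-8R, 2 were lower and 9 were not called. ENPP2, which encodes autotaxin, the secreted enzyme that makes LPA, had signals of 6.03, 6.03, 6.23 and 6.14 in OVCAR-8R, against 7.58, 7.35, 7.31 and 7.81 in OVCAR-8. It fell by 1.41 (0.12, adjusted p = 4.79e-06), the same direction as LPAR1. SPHK1, a kinase that makes S1P, had signals of 9.17, 8.83, 8.97 and 8.88 in OVCAR-8R, against 6.96, 6.94, 7.12 and 7.19 in OVCAR-8, and rose by 1.91 (0.10, adjusted p = 1.68e-07). SGPL1, the lyase that breaks S1P down, rose by 1.23 (0.09). Of the S1P phosphatase genes, SGPP2 fell by 1.07 (0.13), while SGPP1 had a difference of 0.46 (0.07) and was not called. Among lipid phosphatase genes of the family that acts on LPA, PLPP1 had a difference of 0.85 (0.10), PLPP4 of -0.72 (0.10) and PLPP5 of -0.39 (0.07), and the S1P exporter gene SPNS2 had one of 0.22 (0.10), all not called.

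**Figure D3:**
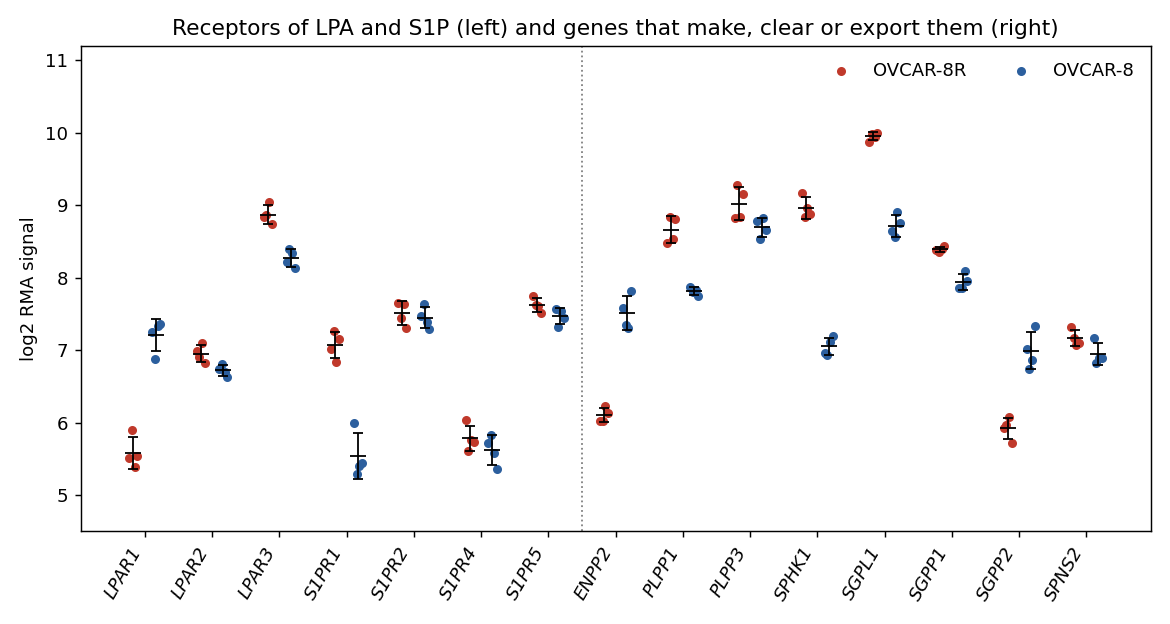
Log2 RMA signal (vertical axis) by array of the receptors for LPA and S1P above the low-signal filter (left of the dotted line). To the right are 8 of the genes that make, clear or export these lipids. Each gene has 4 red points for OVCAR-8R to the left of 4 blue points for OVCAR-8, and black marks for each line's mean and SD. LPAR1 and ENPP2 are lower in OVCAR-8R, S1PR1, SPHK1 and SGPL1 higher, and the arrays of S1PR2, S1PR4 and S1PR5 overlap.

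Of 63 GPR-numbered genes, 49 passed the filter, 3 were higher, 3 were lower and 43 were not called. GPR50, a relative of the melatonin receptors that does not bind melatonin itself, showed the largest difference of all 97 genes. It had signals of 5.33, 5.30, 5.68 and 5.72 in OVCAR-8R, against 10.33, 9.85, 10.40 and 10.50 in OVCAR-8. The OVCAR-8R arrays were near the quartile bound of 5.11, while the OVCAR-8 arrays were far above it, and GPR50 fell by 4.76 on the log2 scale, a 27.2-fold difference (0.16, adjusted p = 9.97e-09). Of all genes measured, 0.308% fell by over 8-fold.

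GPR155, a lysosomal membrane protein that senses cholesterol, had signals of 6.32, 6.83, 6.55 and 6.74 in OVCAR-8R, against 8.32, 8.44, 8.44 and 8.48 in OVCAR-8. It fell by 1.81 (0.11, adjusted p = 6.32e-07), with OVCAR-8R more spread out than OVCAR-8. GPR63, an orphan receptor found mainly in brain, had signals of 6.04, 6.64, 6.24 and 6.38 in OVCAR-8R, against 8.07, 7.94, 8.21 and 8.04 in OVCAR-8. It fell by 1.74 (0.12, adjusted p = 1.69e-06), again without overlap.

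In the other direction, GPR176, an orphan receptor of the circadian pacemaker in mice, had signals of 8.30, 8.38, 8.37 and 8.31 in OVCAR-8R, against 6.48, 6.50, 6.60 and 6.34 in OVCAR-8. The OVCAR-8R arrays differed by less than 0.1, and GPR176 rose by 1.86, a 3.63-fold difference (0.07, adjusted p = 3.37e-08). GPR143, the pigment cell receptor mutated in ocular albinism, had signals of 8.03, 8.00, 8.02 and 7.84 in OVCAR-8R, against 5.99, 6.59, 6.23 and 6.13 in OVCAR-8. It rose by 1.74 (0.12, adjusted p = 1.68e-06), and no array of either line lay between 6.59 and 7.84. GPR39, a receptor that senses zinc, had signals of 8.22, 8.36, 8.20 and 8.08 in OVCAR-8R, against 6.99, 6.67, 7.03 and 6.24 in OVCAR-8. It rose by 1.48 (0.16, adjusted p = 3.48e-05), with OVCAR-8 array 4 the lowest of its line, and it did not pass treat (adjusted p = 0.0948).

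GPR162, GPR45 and GPR3 came nearest to a call on the higher side. The orphan GPR162 had signals of 6.90, 6.69, 6.94 and 6.61 in OVCAR-8R, against 6.03, 5.94, 5.88 and 5.83 in OVCAR-8, a difference of 0.87 (0.09, adjusted p = 3.07e-05). GPR45 had a difference of 0.77 (0.09), and GPR3, which activates the stimulatory G protein without a ligand, one of 0.64 (0.08). Nearest on the lower side, after ADGRA3 and ADGRG2, was GPR160, with a difference of -0.68 (0.15, adjusted p = 0.00433). Smaller positive differences without overlap were found for GPR107 (0.56), GPR108 (0.55) and GPR137 (0.59), which encode proteins of the Golgi or lysosomal membranes, for GPR132 (0.55), GPR78 (0.57) and for GPR161 (0.36), a ciliary receptor that holds back Hedgehog signalling. GPR180 and GPR52 had differences of -0.39 and -0.49 with no overlap. In all, 22 receptors had an adjusted p under 0.05 and less than a 2-fold difference. A further 40 had an adjusted p of 0.05 or more, which does not show that they are equal in both lines.

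The 22 receptors that fell in the lowest quartile of both lines were not tested, and their differences lay between -0.44 (GPR85) and 0.24 (GPR183). Several are best known from leukocytes. GPR183, which guides B cells along oxysterols, averaged 4.84 in OVCAR-8R and 4.60 in OVCAR-8, the proton sensor gene GPR65 averaged 3.80 in OVCAR-8R and 3.84 in OVCAR-8, and ADGRE3 averaged 4.91 in OVCAR-8R and 4.95 in OVCAR-8. The arrays give no test of presence for these genes, so an expression too low for their probes cannot be told apart from none.

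Ligands and partners of adhesion receptors were listed as 21 genes, all above the filter, of which 3 were higher in OVCAR-8R and 18 were not called. TGM2 (transglutaminase 2), a ligand of ADGRG1, had signals of 10.61, 10.72, 10.58 and 10.71 in OVCAR-8R, against 7.10, 7.38, 7.12 and 7.16 in OVCAR-8. It rose by 3.46, an 11.0-fold difference (0.08, adjusted p = 1.25e-09). The other ADGRG1 ligand listed, the type III collagen gene COL3A1, had a difference of -0.07 (0.10) and was not called. PRNP, whose prion protein activates ADGRG6 in mice, rose by 1.21 (0.08), and FLRT2, a ligand of latrophilins, which are adhesion receptors outside the set, by 1.66 (0.10). CD55 and THY1, which bind ADGRE5, had differences of -0.43 (0.08) and 0.26 (0.08), and the C1q-like genes C1QL1 to C1QL4, ligands of ADGRB3, lay between -0.30 and 0.85. Among 8 other ligand genes above the filter, PSAP, which encodes prosaposin, rose by 1.69 (0.07) and RSPO4 by 1.099 (0.11), while 6 were not called. Prosaposin is a lysosomal precursor protein reported as a ligand of GPR37, and R-spondins act on LGR receptors, which carry other symbols.

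G protein subunit genes were called higher in 8 of 29 cases, beside 8.37% of all genes, and the other 21 were not called. Among alpha subunits, GNAI2 of the inhibitory class had signals of 11.31, 11.23, 11.37 and 11.21 in OVCAR-8R, against 8.39, 8.32, 8.49 and 8.38 in OVCAR-8. It rose by 2.89 (0.07, adjusted p = 1.54e-09), although a further GNAI2 probeset gave only 0.47 and was not called. GNA15, which couples to phospholipase C and is typical of blood cells, rose by 2.75 (0.16), GNAO1, typical of neurons, by 1.98 (0.16) and GNA12, which couples to RhoA, by 1.44 (0.12). The stimulatory subunit gene GNAS and the phospholipase-coupled GNAQ had differences of 0.54 (0.07) and 0.37 (0.07), and GNAZ of the inhibitory class one of -0.41 (0.08), all not called. Of the beta and gamma subunits, GNGT2, a transducin subunit of cones, rose by 3.40 (0.10), with 8.03 in OVCAR-8R and 4.63 in OVCAR-8, where it lay in the lowest quartile, so that the size is uncertain. GNG11, GNB5 and GNB2 rose by 1.27, 1.15 and 1.07, and a second GNG5 probeset passed at 1.35 where the brighter one gave 0.89. GNB3 and GNG4 had differences of -0.79 (0.11) and -0.33 (0.08) and were not called.

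Effectors and regulators moved in part. Of 16 effector genes, 4 were higher and 12 were not called. PLCB4, a phospholipase C that Gq activates, had signals of 10.80, 11.11, 10.94 and 11.27 in OVCAR-8R, against 7.40, 7.45, 7.56 and 7.56 in OVCAR-8, and rose by 3.54 (0.11, adjusted p = 5.05e-09). PLCB3 and the adenylate cyclase genes ADCY5 and ADCY7 rose by 1.32, 1.15 and 1.13. Of 16 RGS genes above the filter, whose proteins switch G proteins off, RGS9 rose by 1.30 (0.09), RGS16 fell by 1.55 (0.09) and RGS5 fell by 1.23 (0.09), with 13 not called. The OVCAR-8R mean of RGS5, 4.96, lay in the lowest quartile, so that its size is uncertain. Of 8 receptor kinase and arrestin genes, which silence active receptors, GRK3 fell by 1.42 (0.12) and 7 were not called, among them GRK4 at -0.89 (0.11), GRK6 at -0.36 (0.10), ARRB1 at 0.64 (0.08) and GRK5 at 0.71 (0.08), whose other probeset gave 0.22. Over the 8 ligand, G protein and regulator lists, 20 of 111 genes above the filter were higher and 5 were lower, beside 8.37% of all genes in each direction.

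**Figure D4:**
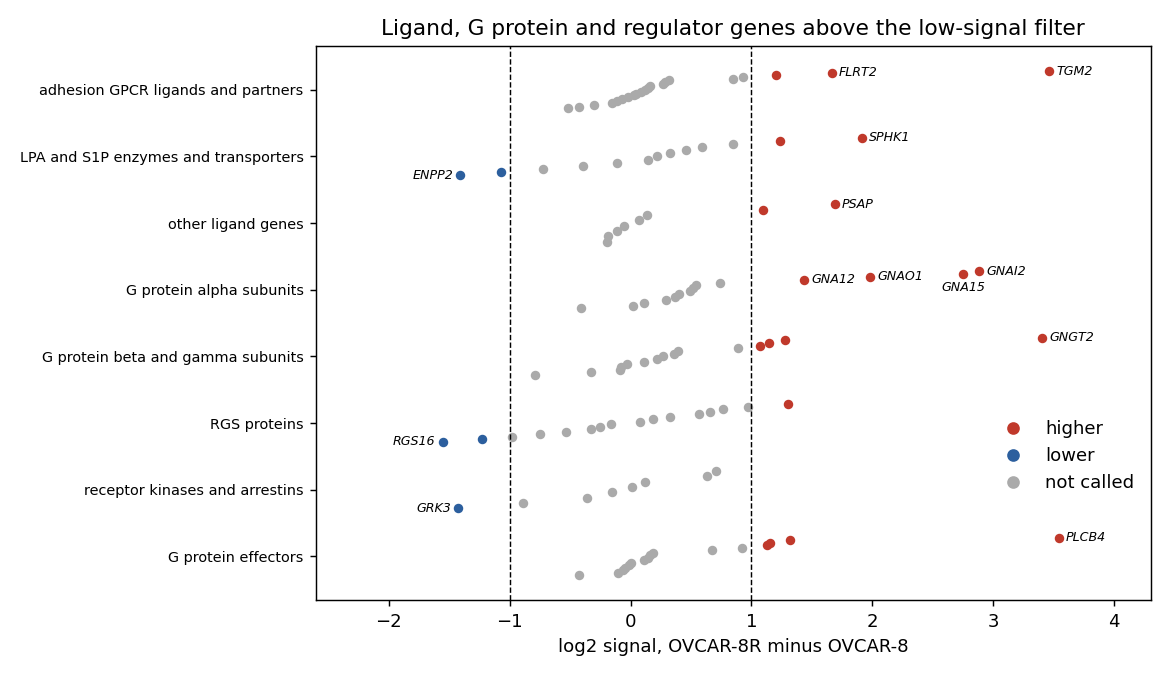
Difference in log2 signal between OVCAR-8R and OVCAR-8 (horizontal axis) of each gene above the low-signal filter in 8 lists of ligands, G proteins, effectors and regulators (vertical axis), red for higher, blue for lower and grey for not called, with dashed lines at 2-fold. TGM2 at 3.46, PLCB4 at 3.54 and GNGT2 at 3.40, which was in the lowest quartile in OVCAR-8, lie farthest to the right, and RGS16 at -1.55 farthest to the left.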

How the data were processed

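RNA of 8 spheroid samples was measured on Affymetrix Human Gene ST arrays, 4 per line. The authors computed the deposited intensity values by RMA in Affymetrix Expression Console, and the table holds 1 value per probeset and array on a linear scale for 33297 probesets. RMA equalises the distribution of probe signals over arrays, so a shift of the whole transcriptome between the lines would not be seen. Log2 was taken here. The annotation names 1 gene for 19460 probesets, several for 1754, and 12083 are unnamed here. Gene identifiers were looked up in RefSeq (GRCh38.p14), and no symbol changed. Where a gene had several probesets, the brightest was taken. The test was limma (lmFit, then eBayes; limma 3.58.1 in R 4.3.3) on all probesets above the filter, without a replicate block. The procedure was tested on simulated data with arrays drawn independently, so that test does not cover the opposed pairs of OVCAR-8R arrays. The methods name Student's t-test, used here as an alternative. All p-values rest on how far the arrays of a line differ, which may be technical, and 4 arrays per line limit the precision.

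The receptors, the gene lists and the tests were chosen with earlier results of these data known. Named are all called receptors, all measured LPA, S1P and GPRC5 receptors, and the measured adhesion receptors by value or range. Also named are the 3 uncalled receptors nearest to the threshold in each direction, and up to 4 called genes per list and direction. Other genes were chosen after their values were seen, among them GPR107, GPR108, GPR132, GPR137, GPR161, GPR180, GPR52, GPR78, GPR85, GPR183, GPR65 and the uncalled genes of the lists. The alternatives were other filters, thresholds, tests, normalizations, log scales, array weights, gene summaries, a fit with the replicate number as a block, and fits without each array.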

Additional observations from a re-analysis of the deposited data

Results flagged for a closer look

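Of 150 sets of 4 arrays (75 receptors in each line), 7 held an array that stood far from the other 3 by Dixon's test, and chance gives about 1 in 20. In OVCAR-8R, these were GPR143 at 7.84 in array 4 (the next array at 8.00), GPR78 at 6.37 in array 2 (next 6.61), ADGRB2 at 7.71 in array 3 (next 7.57) and GPR135 at 7.91 in array 3 (next 8.22). In OVCAR-8, these were ADGRA2 at 7.36 in array 2 (next 7.51), GPR173 at 6.68 in array 2 (next 6.05) and GPR25 at 6.94 in array 4 (next 7.24). Of these 7 receptors, GPR143 was called, and its most distant OVCAR-8R array was still above all OVCAR-8 arrays.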

How the results depend on the processing

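The same 13 receptors were called without a filter, with the filter on the mean over arrays, with the methods' t-test and an intensity trend. An adjusted p under 0.01, 3 renormalizations, array weights and the replicate block gave the same 13. Averaging probesets per gene could not change a receptor's difference, because each receptor has 1 probeset, and the calls stayed. The 13 receptors also stayed called without each array in turn, with shifts of at most 0.16. Treat called 6 receptors higher and 4 lower, without ADGRB3, ADGRE5 and GPR39, and over all genes 832 higher and 643 lower (1891 probesets, against 3675). At any size of difference, 23 receptors were higher and 12 lower, with 4396 and 4776 genes and 13043 probesets. ADGRB3 was not called with log2(signal + 16) and was removed by leaving out the lowest 50% of signal. Without 1 array, 8 receptors were higher and 5 to 6 lower (ADGRA3 was added), with 1305 to 1360 genes higher, 1268 to 1401 lower and 3635 to 3770 probesets. Replicate numbers are shared between the lines, and deviations of same-numbered arrays correlated at 0.16, -0.32, -0.05 and 0.44. With 4 numbers these values cannot decide whether same-numbered arrays were handled together, and the main fit assumed no pairing. With the replicate block, 8 receptors were higher and 5 lower, as were 1334 genes in each direction and 3681 probesets. Signals near the quartile bound limit the sizes for GPR50, ADGRB3, LPAR1 and, in OVCAR-8, S1PR1. Means in the lowest quartile of 1 line do so for GNGT2, RGS5, LUM and MECOM.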

Other observations

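The coding genes next to the 13 called receptors in RefSeq order were looked up after the receptor values were seen, and 15 of these 26 neighbours had been tested. Of the 15, 4 were called, where 16.7% of all genes were called. HMGB3, a chromatin protein gene next to GPR50, fell by 1.69 on the log2 scale (adjusted p = 3.52e-07 from limma), SCRN3 next to GPR155 fell by 1.43 and NDUFAF4, an assembly factor of respiratory complex I next to GPR63, fell by 1.56, all in the direction of the receptor. TBL1X, next to GPR143, fell by 1.20 while GPR143 was higher. WIPF1, on the other side of GPR155, had a difference of 0.69, opposite to GPR155, and was not called. ADGRL1, a latrophilin gene next to ADGRE5, had a difference of -0.40 (adjusted p = 0.00376) and was not called. HIVEP2, next to ADGRG6, had a difference of 0.95 under the threshold.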
